A study of Mus musculus with 2 samples.

Results

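The genes described here encode the factors that copy and transcribe mitochondrial DNA, together with nuclear transcription factors that act on their promoters. The 10 genes are Nrf1, Gabpa, Gabpb1, Tfam, Tfb1m, Tfb2m, Polg, Polg2, Polrmt and Twnk. They were chosen by name for their function and not by a rule on their signals, although earlier results of these data were known. All of their probes were taken. All 10 are among the 16660 genes that could be named and were detected on at least 1 array, and they are read by 18 of the 55670 probes. Each of the 18 probes was well above background on both arrays, none was saturated, and each occupied a single spot.

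The FOXO1-Tg pool held gastrocnemius RNA of 5 male mice, 25 weeks of age, that carry a transgene overexpressing the forkhead transcription factor FOXO1 in skeletal muscle. The wild-type pool held the same tissue of 6 male control mice of the same age. The promoter that drives the transgene is not given in the sources used here. Each pool was hybridized to 1 array, so no ratio has a replicate check, variation among the mice of a pool is not visible, and no p-value is given. Ratios are FOXO1-Tg over wild-type on the log2 scale, after each processed signal (scanner units, background subtracted) was divided by the 75th percentile of its array, a signal of 844 on the FOXO1-Tg array and 771 on the wild-type array. This scaling subtracts 0.13 from every log2 ratio. The scanner error is a value that the image software gives for each spot. It was 0.20 for the ratio of the brightest probe of each of the 10 genes, and 95% intervals below rest on it alone. Among bright probes it hardly varied with signal, since Acta1, at 600505 in the FOXO1-Tg pool, also had 0.20. The intervals of single ratios thus have nearly the same width for every gene and are not a measured spread. Replicate spots spread less, with a median SD of 0.053 over 293 probes. The scanner error covers the array measurement and not the mice or the labeling.

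The mitochondrial genome is a small circle that encodes subunits of the respiratory chain and the RNAs needed to translate them. Everything that copies and transcribes it is encoded in the nucleus. POLRMT, the mitochondrial RNA polymerase, starts at the promoters with the help of TFAM and TFB2M. TFAM also packs the DNA into nucleoids. The replication fork is formed by the helicase TWINKLE (Twnk), the polymerase POLG with its accessory subunit POLG2, and a single-strand binding protein. NRF1 and GABP, which is made of the DNA-binding GABPA and a GABPB subunit, bind promoters of many nuclear genes for mitochondrial proteins, and coactivators of the PGC-1 family dock on them. In skeletal muscle this pathway is known for following the oxidative capacity of the fibers.

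In the FOXO1-Tg pool, the helicase gene Twnk and the transcription factor genes Tfb2m and Tfam had the lowest ratios of the 10 by their brightest probes. Nrf1, Gabpb1, Tfb1m and Polg stayed within 0.10 of 0. The place of Tfam depended on the probe, as described below. Ratios of the brightest probes were below 0 for 9 of the 10 genes, in a comparison in which 58.3% of the 15493 genes detected on both arrays were below 0. Twnk alone was more than 1.5-fold lower, against 10.8% of all genes, and none of the 10 was more than 1.5-fold higher, against 9.18%. None passed 2-fold in either direction, against 3.86% of genes lower and 4.2% higher. Here and below, shares past a fold threshold are over the 16660 genes detected on at least 1 array. A bound was used for genes detected on only 1, whereas all probes of the 10 were detected on both. The median of the 10 was -0.19, against -0.07 for all genes, and 8 of the 10 lay below the all-gene median. A call of 1 in 10 is near the background share, and nothing particular to these genes is read from it. Ratios of 3 genes (Twnk, Tfb2m and Tfam) were more than 2 scanner errors below 0, against 14.3% of the genes detected on both arrays, and those of 6 genes were within 1 scanner error of 0, against 43.8%. The same 3 genes were lower past a smaller threshold, a log2 ratio of -0.32, which 24.1% of all genes passed. With 10 genes, these counts are given as a description only.

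**Figure D1:**
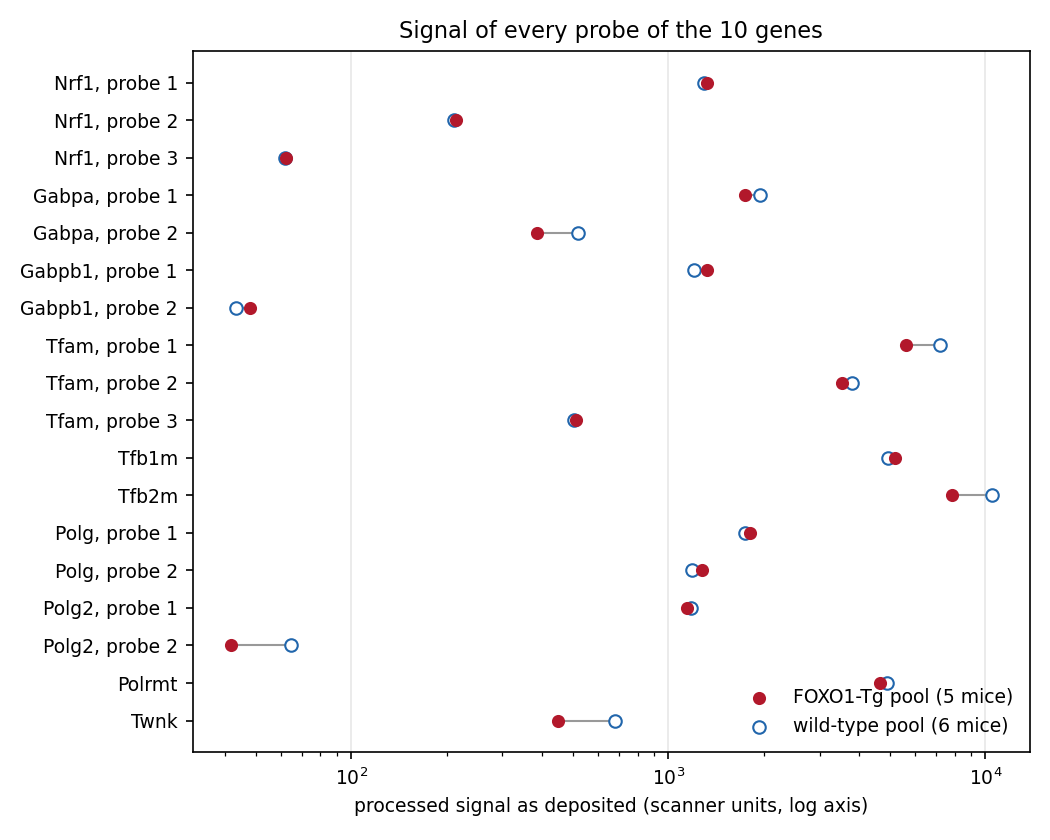
Processed signal of each of the 18 probes as deposited (x axis, scanner units, log axis), with filled points for the FOXO1-Tg pool of 5 mice and open points for the wild-type pool of 6 mice. Probes of a gene are numbered by brightness, and the widest gaps between pools are at Twnk, the second Polg2 probe and the second Gabpa probe.

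Before scaling, 9 of the 18 probes had the higher signal in the FOXO1-Tg pool, and after scaling 2 of the 18, both of Gabpb1, had a ratio above 0. The direction of the small ratios therefore depended on the scaling. Without scaling 6 of the 10 genes were below 0, and so were 42.6% of all genes. Twnk, Tfb2m, Tfam, Gabpa, Polrmt and Polg2 were below 0 under each of 12 alternative settings, whereas Nrf1, Gabpb1, Tfb1m and Polg were above 0 without scaling and with scaling to the median.

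Among the nuclear regulators, the 2 Gabpa probes had the lower ratios and Nrf1 and Gabpb1 lay near 0. Nrf1 encodes nuclear respiratory factor 1, an activator of nuclear genes for respiration and of the mitochondrial transcription machinery. Its brightest probe measured 1329 in the FOXO1-Tg pool, against 1297 in the wild-type pool, a log2 ratio of -0.09. The other Nrf1 probes had signals of 215 and 62.5 in the FOXO1-Tg pool, against 211 and 61.9 in the wild-type pool, with ratios of -0.11 and -0.12. The pools were thus nearly level on every Nrf1 probe, and the 3 ratios spanned 0.022, although the dimmest probe had a scanner error of 0.24.

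Gabpa encodes the ETS-family subunit through which GABP binds DNA. Its brighter probe had signals of 1750 in the FOXO1-Tg pool and 1944 in the wild-type pool, a ratio of -0.28 (95% interval -0.68 to 0.12). The dimmer probe had 385 in the FOXO1-Tg pool and 519 in the wild-type pool, a ratio of -0.56. Both probes were lower in FOXO1-Tg. They differed by 0.28 on the log2 scale, a gap that 33.2% of the 4050 genes with several probes exceeded. Gabpb1 encodes the partner subunit, which carries the transactivation domain of the complex. Its probes had signals of 1328 and 47.9 in the FOXO1-Tg pool, against 1204 and 43.2 in the wild-type pool, and ratios of 0.01 and 0.02. The ratio of Gabpa was lower than that of Gabpb1 by 0.29 on the log2 scale, with an interval of the difference of -0.86 to 0.27, so the subunits could not be separated at the scanner error.

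Tfam encodes the DNA-packing protein that also activates transcription, and its probes disagreed. The brightest had 5635 in the FOXO1-Tg pool, against 7176 in the wild-type pool, which is 0.718-fold or a ratio of -0.48 (95% interval -0.88 to -0.08). The second had 3537 in the FOXO1-Tg pool and 3791 in the wild-type pool, a ratio of -0.23. The dimmest had 513 in the FOXO1-Tg pool and 503 in the wild-type pool, a ratio of -0.10. All 3 ratios were below 0, all 3 probes are assigned to the same transcript, and their range of 0.38 was exceeded by 22.7% of genes with several probes. The lower level of Tfam is therefore read mainly from 1 probe, and with the median over probes its ratio was -0.23.

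Tfb2m encodes the factor that opens the promoter with POLRMT, and Tfb1m its paralog, which in mammals acts as a methyltransferase of mitochondrial ribosomal RNA. The Tfb2m probe measured 7853 in the FOXO1-Tg pool, against 10471 in the wild-type pool, which is 0.686-fold or a ratio of -0.54 (95% interval -0.94 to -0.14). The Tfb1m probe had 5180 in the FOXO1-Tg pool and 4915 in the wild-type pool, a ratio of -0.05. The initiation factor was lower in FOXO1-Tg and its paralog was near level, but their difference of -0.49 had an interval of -1.06 to 0.07 and reached 0. Polrmt had 4647 in the FOXO1-Tg pool and 4885 in the wild-type pool, a ratio of -0.20. Relative to the polymerase gene, Tfb2m stood at -0.34 (-0.91 to 0.22) and Tfam at -0.28 (-0.84 to 0.29). Tfb2m and Tfam differed by -0.07. Each of the genes Tfb1m, Tfb2m and Polrmt was read by a single probe, so agreement between probes could not be examined for them.

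In the replication fork, the helicase gene had the lowest ratio and the polymerase gene lay near 0. Twnk had 451 in the FOXO1-Tg pool, against 682 in the wild-type pool, which is 0.604-fold or a ratio of -0.73 (95% interval -1.13 to -0.33). Of the 15493 genes, 5.47% had a lower ratio than Twnk, 9.96% lower than Tfb2m and 12.6% lower than Tfam. Twnk was the lowest of the 10 under all 12 alternatives, between -0.73 and -0.54, and no second probe of it was on the array. Polg, the catalytic subunit that copies the mitochondrial genome, had probes at 1808 and 1279 in the FOXO1-Tg pool, against 1744 and 1190 in the wild-type pool, with ratios of -0.08 and -0.02. The pools were level on both Polg probes. The difference between Twnk and Polg was -0.65 with an interval of -1.22 to -0.08. It was the only 1 of 10 differences between genes examined whose interval did not include 0, and these intervals were not adjusted for their number.

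Polg2 encodes the accessory subunit that raises the processivity of POLG. Its brighter probe had 1144 in the FOXO1-Tg pool and 1179 in the wild-type pool, a ratio of -0.17. Its dim probe had 41.7 in the FOXO1-Tg pool and 64.8 in the wild-type pool, a ratio of -0.77 with a scanner error of 0.25. The 2 probes differed by 0.59, more than in all but 11.7% of genes with several probes, and the dim probe was only 2.78 times its background on the FOXO1-Tg array. The place of Polg2 relative to Twnk and Polg therefore depended on the probe. The Twnk ratio minus that of the brighter Polg2 probe was -0.55 (-1.12 to 0.01).

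**Figure D2:**
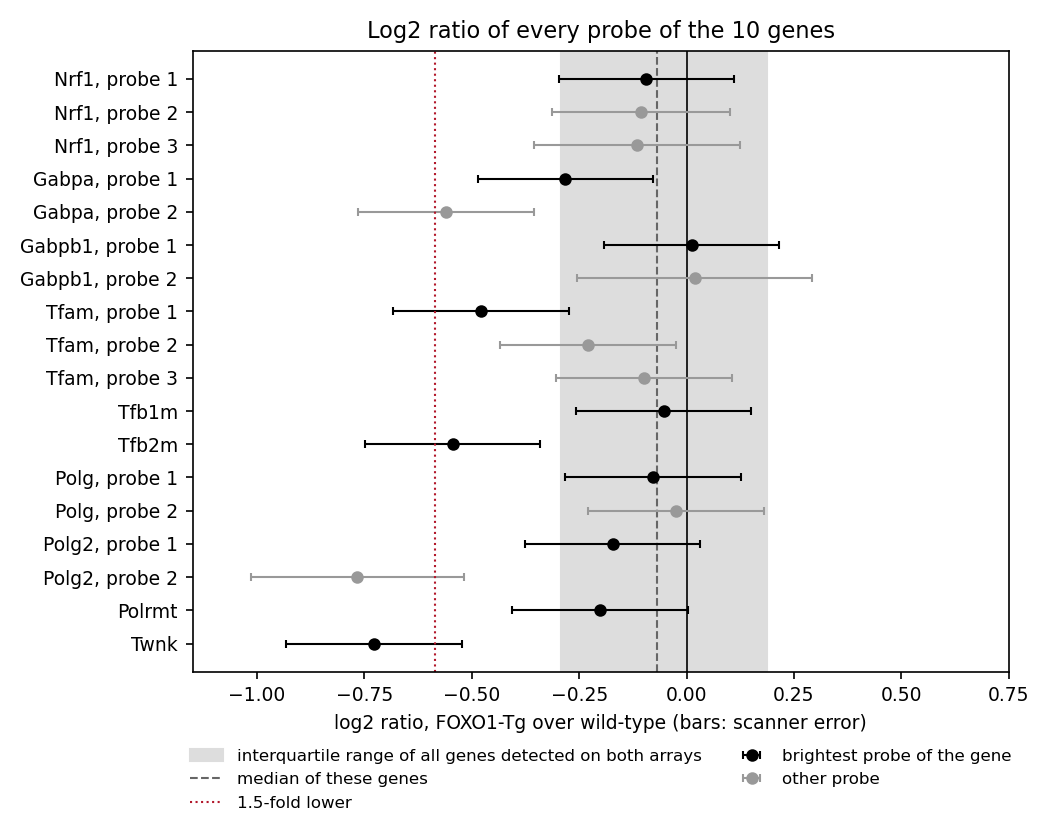
Log2 ratio (FOXO1-Tg/wild-type) for each of the 18 probes (x axis), with bars of 1 scanner error, black for the brightest probe of a gene and gray for its other probes. The shaded band is the interquartile range of all genes detected on both arrays, from -0.29 to 0.19, the dashed line their median of -0.07 and the dotted line 1.5-fold lower. Twnk and the dim Polg2 probe lie past the dotted line.

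The promoters of the 10 genes were also searched for motifs, a search that the signals did not enter. RefSeq promoter sequences of GRCm38.p6 gave 13 windows of 250 bases before annotated starts for the 10 genes. The array was designed on mm9, so these positions belong to the promoters and not to the probes. Motifs were searched on both strands. Only the letters given here were matched, so a gene without a match may hold another form of a site. The GABP site was taken as CCGGAAG, an ETS-family motif, and the GC box of Sp1-family factors as GGGCGG. The NRF1 site was GCGCANGCG, and a separate shorter pattern, TGCGCA, is named NRF1 core here. The FOXO site was TTGTTTAC or TTATTTAC. A GC box and a GABP site do not share letters in these windows, and neighboring GC boxes can overlap, as in Polg. The GABP site occurred in 6 of the 10 genes, against 13.3% of 12298 genes that were detected on both arrays and had a window. By windows, this was 6 of 13, against 11.3% for detected genes and 6.91% of all 32851 windows. It remained in 6 of the 10 when only 100 bases were searched, where 9.16% of detected genes held it. The 10 include genes of factors that act on promoters of the others, so this share is not independent of how they were chosen. The stretches of 30 bases around these matches are shown because GABP, whose genes Gabpa and Gabpb1 are among the 10, is a factor of this motif. The motif is one of the ETS family, so a match does not tell which factor of the family binds there. Capitals mark the GABP site, which reads CTTCCGG where the match is on the opposite strand.
Gabpa (chr16:84835019-84835048, + strand): ggagggtaagtgCTTCCGGgtccctcagct
Tfam (chr10:71238074-71238103, - strand): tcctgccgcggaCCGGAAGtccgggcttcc
Polrmt (chr10:79746607-79746636, - strand): accctaagagcgCTTCCGGcagtcgcagaa
Polg (chr7:79466294-79466323, - strand): ggaggacctcacCCGGAAGtccctctgcac
Polg2 (chr11:106779549-106779578, - strand): gcgggtgacgctCTTCCGGgggcgtggtct
Twnk, start 2 (chr19:45006436-45006465, + strand): actaaccggtgaCTTCCGGttccggggttg
Twnk, start 2 (chr19:45006480-45006509, + strand): tggagagttttgCTTCCGGagtcaccgcga

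Counted in bases from the start, the matches began at -29 in Polg2, -38 in Polg, -43 in Polrmt, -47 in Tfam, -93 in Gabpa, and at -66 and -110 in the second start of Twnk. The genes with a match had ratios from -0.73 (Twnk) to -0.08 (Polg). Those without this exact string, Nrf1, Gabpb1, Tfb1m and Tfb2m, had ratios from -0.54 (Tfb2m) to 0.01 (Gabpb1). Low and near-level ratios thus occurred both with and without the match, and a relation between match and ratio was not tested. GC boxes were in windows of 7 genes, namely Nrf1, Gabpb1, Tfam, Tfb1m, Tfb2m, Polg and Twnk, against 57.5% of detected genes, and by windows in 7 of 13, against 51.8%. The GC box was thus about as frequent as in detected genes at large. The NRF1 site was found for Gabpb1 alone, against 10.7% of detected genes. The NRF1 core was found for Tfb2m and Polrmt, against 11.6%. Nothing particular to these genes is read from either count. A FOXO site was matched for Polg2 alone, at positions -108 to -101, against 0.886% of detected genes for that form. The other form was in none of the 13 windows, against 0.772% of detected genes.

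**Figure D3:**
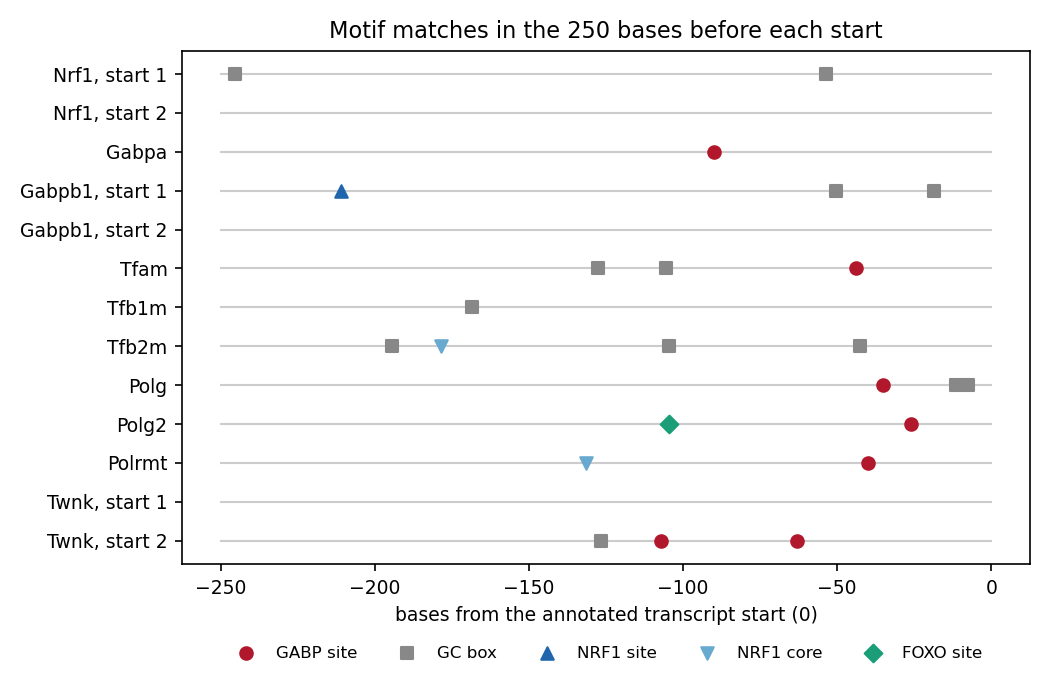
Motif matches on either strand in the 250 bases before each of 13 annotated starts of the 10 genes (x axis, bases from the start at 0), with 1 line per start and 1 symbol per motif. The GABP site is on 6 lines, on 4 of them within 50 bases of the start.

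The upstream windows of Tfam and of the paralogs Tfb1m and Tfb2m are shown whole, because these genes encode the factors set beside the polymerase above. The ratios of the paralogs were -0.05 (Tfb1m) and -0.54 (Tfb2m), and the interval of their difference reached 0. Capitals mark the motifs named above, 1 GC box in Tfb1m, 3 GC boxes and an NRF1 core in Tfb2m, and 2 GC boxes and a GABP site in Tfam.
Tfam (chr10:71238045-71238294, - strand): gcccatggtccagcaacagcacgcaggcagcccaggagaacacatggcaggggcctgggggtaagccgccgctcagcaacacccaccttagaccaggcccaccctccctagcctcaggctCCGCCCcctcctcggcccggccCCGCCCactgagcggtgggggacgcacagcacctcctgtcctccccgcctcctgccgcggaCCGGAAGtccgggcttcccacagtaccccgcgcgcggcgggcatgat
Tfb1m (chr17:3557756-3558005, - strand): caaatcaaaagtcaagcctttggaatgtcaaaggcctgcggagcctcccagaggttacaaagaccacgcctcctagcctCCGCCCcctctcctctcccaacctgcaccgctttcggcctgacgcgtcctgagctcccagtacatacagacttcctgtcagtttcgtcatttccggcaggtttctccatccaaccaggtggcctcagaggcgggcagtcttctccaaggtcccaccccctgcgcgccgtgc
Tfb2m (chr1:179546277-179546526, - strand): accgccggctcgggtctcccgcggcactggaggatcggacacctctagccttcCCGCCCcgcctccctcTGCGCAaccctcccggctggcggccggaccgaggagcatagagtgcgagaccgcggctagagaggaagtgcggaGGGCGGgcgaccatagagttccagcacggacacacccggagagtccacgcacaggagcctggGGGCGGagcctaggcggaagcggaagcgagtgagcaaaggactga

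Other genes of the pathway gave small ratios like those of the 10, most of them below 0. Over 6 lists with 98 genes detected on both arrays, none of which holds any of the 10, 79 ratios were below 0, against 58.3% of all genes. Without scaling 63 were below 0, against 42.6% of all genes. Of the 98, 3 were more than 1.5-fold lower, against 10.8% of all genes, and 1 was more than 1.5-fold higher, against 9.18%. The list medians lay between -0.23 and -0.14, around the -0.19 of the 10 genes and below the -0.07 of all genes. These lists were described by counts and medians only and were not tested.

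Of 15 other genes of mitochondrial DNA replication and repair, 14 were below 0, with a median of -0.18. Endog, a mitochondrial endonuclease, had 8337 in the FOXO1-Tg pool and 11680 in the wild-type pool, a ratio of -0.62, and was the only one more than 1.5-fold lower, a call lost under 5 of 12 alternatives, among them no scaling and loess. Apex1, the endonuclease of abasic sites, had -0.40. At the other end stood the glycosylase gene Mutyh at 0.26 and Ssbp1, the single-strand binding protein of the fork, at -0.01, with 4 Ssbp1 probes between -0.34 and 0.26. The fork genes Polg and Ssbp1 were thus both near 0 by their brightest probes, apart from Twnk. Of 13 genes that supply nucleotides to mitochondria, 9 were below 0, with a median of -0.15 and none past 1.5-fold. They ranged from Rrm2b, a ribonucleotide reductase subunit, at -0.48 and the nucleoside diphosphate kinase gene Nme4 at -0.40, to the aminotransferase gene Abat at 0.32 and the pyrimidine nucleotide carrier gene Slc25a33 at 0.40.

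Of 12 nucleoid and transcription partners, 8 were below 0, with a median of -0.14 and none past 1.5-fold. The protease gene Lonp1, whose product degrades TFAM, had -0.30 and the mitoribosomal protein gene Mrpl12 -0.23, while Clpx, a mitochondrial unfoldase, had 0.23 and Mterf1a, of the mitochondrial termination factor family, 0.34. Of 22 genes that process mitochondrial RNA, 18 were below 0, with a median of -0.16 and none past 1.5-fold. Here Fastkd3 had -0.52 and Prorp, the nuclease of mitochondrial RNase P, -0.45, against 0.08 for the helicase gene Dhx30 and 0.10 for Fastkd1. Of 18 nuclear genes linked to NRF1 or GABP, most of them respiratory subunits, 16 were below 0, with a median of -0.19 and none past 1.5-fold. The complex I subunit gene Ndufs8 had -0.44 and Cox4i1, a subunit of cytochrome c oxidase, -0.39, while Cox7a2 stood at 0.00 and Cox6a1 at 0.31. Of the 15 mitochondrially encoded genes listed, none could be named on the array through the gene table, so the RNAs that these factors make were not analysed here.

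**Figure D4:**
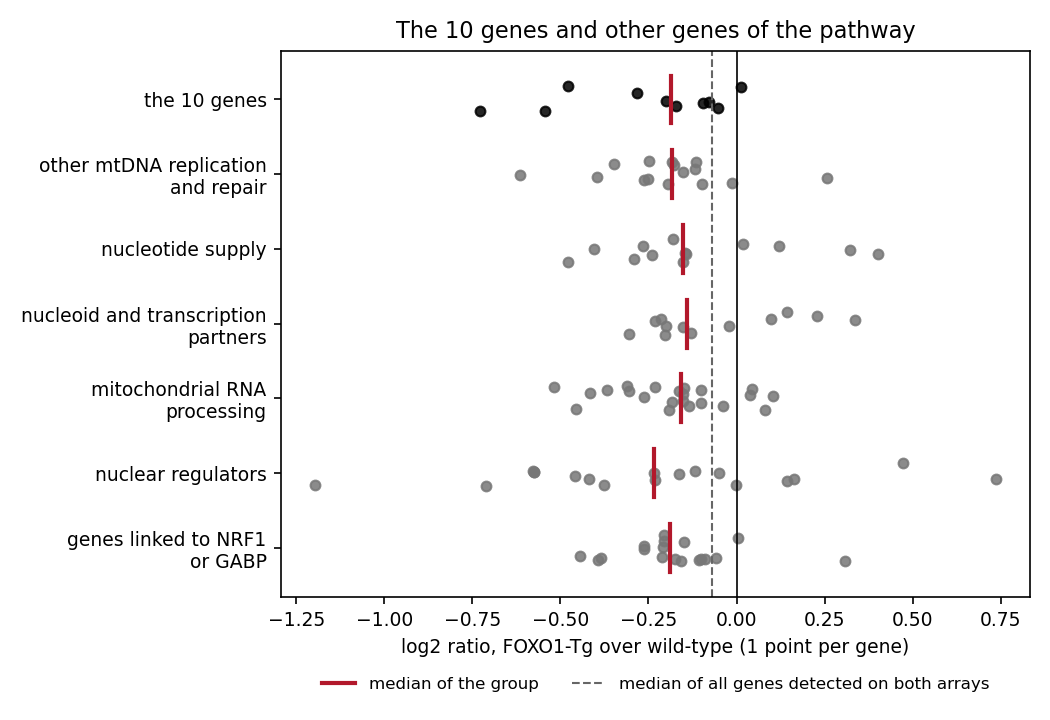
Log2 ratio (FOXO1-Tg/wild-type), 1 point per gene (x axis), for the 10 genes and 6 lists of other genes of the pathway (rows). Red bars are group medians, which lie between -0.23 and -0.14 for the lists, and the dashed line is the median of all genes detected on both arrays, -0.07.

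The widest spread was among the 18 nuclear regulators, of which 14 were below 0, with a median of -0.23. More than 1.5-fold lower were Esrrb, an estrogen-related receptor gene, at -0.71, and Ppargc1b, and more than 1.5-fold higher was the proto-oncogene Myc at 0.74. Nfe2l2, which encodes a regulator of antioxidant genes, had 0.47. The coactivator gene Ppargc1b was the single gene of the lists past 2-fold, with 378 in the FOXO1-Tg pool and 791 in the wild-type pool, a ratio of -1.20. Its relative Ppargc1a had -0.57 and -0.58 on 2 probes and the third family member Pprc1 had -0.05. Esrra, a nuclear receptor that these coactivators bind, had -0.46. The lowest of the 10 genes, Twnk at -0.73, thus lay between Ppargc1a and Ppargc1b on the scale of ratios.

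The targeted gene checked the labels, since the brighter Foxo1 probe had 279457 in the FOXO1-Tg pool and 4540 in the wild-type pool, although a second probe had a ratio of 0.03. In pooled tissue, fewer cells of a type and less RNA per cell cannot be told apart. Muscle fiber markers were detected in full on both arrays (9 of 9), with summed signals of 3.73e6 in the FOXO1-Tg pool and 3.88e6 in the wild-type pool, and 1 of them (Mb) was more than 2-fold lower. All 6 slow fiber markers were more than 2-fold lower, with summed signals of 135593 in the FOXO1-Tg pool and 379128 in the wild-type pool. Adipocyte markers were more than 2-fold higher for 7 of 8 (301669 in FOXO1-Tg, 102992 in wild-type) and keratinocyte markers for 5 of 7 (7852 in FOXO1-Tg, 1573 in wild-type, with 1 of 7 lower by its bound). Schwann cell markers were more than 2-fold higher for 3 of 7 (102031 in FOXO1-Tg, 72515 in wild-type). Markers of other cells did not pass 2-fold but lay to one side. All 6 fibroblast markers had ratios above 0 (median 0.50, 2 of them past 1.5-fold, summed signals of 437048 in FOXO1-Tg and 310298 in wild-type). By their brightest probes, so did all 6 macrophage markers (median 0.32, 48148 in FOXO1-Tg and 38999 in wild-type). Probes of Itgam, however, ranged from -0.69 to 0.07 and those of Csf1r from -0.02 to 0.45. Itgam alone gave 33459 of the macrophage sum in FOXO1-Tg and 29067 in wild-type. All 7 endothelial markers were below 0 (median -0.24, 11451 in FOXO1-Tg and 12126 in wild-type), as were all 4 blood cell markers (median -0.49, 62208 in FOXO1-Tg and 77251 in wild-type). The part of fiber type and of other cells in the ratios of the 10 genes was not tested.

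**Figure D5:**
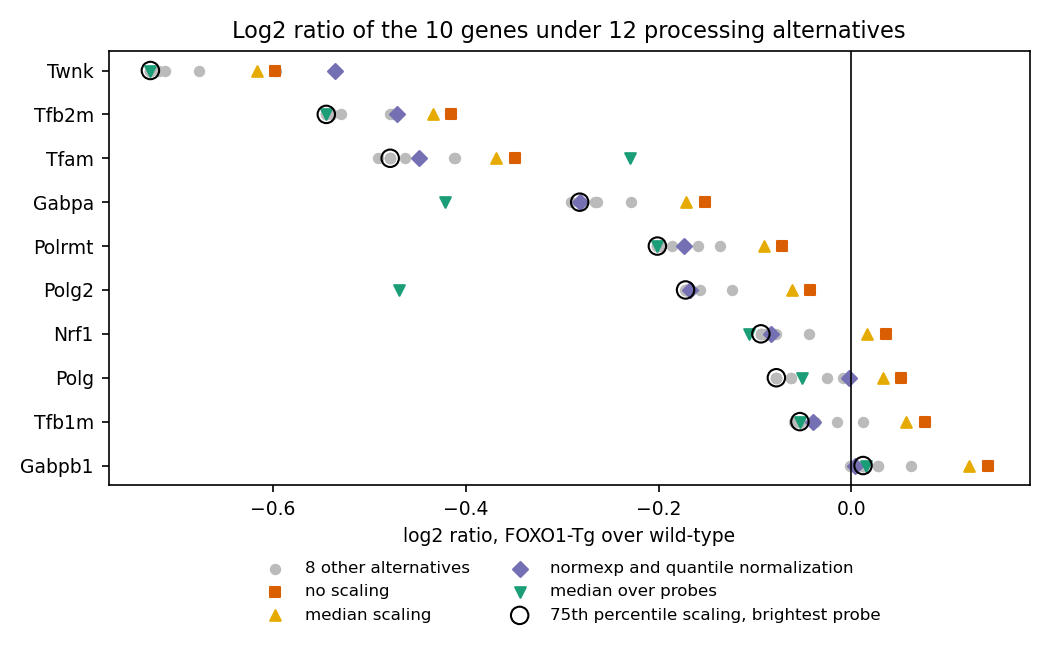
Log2 ratio (FOXO1-Tg/wild-type) for each of the 10 genes (rows) under the main setting (open circle) and 12 alternatives (symbols in the key). Twnk has the lowest ratio under all 12, while Nrf1, Polg, Tfb1m and Gabpb1 lie above 0 without scaling.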

How the data were processed

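The authors deposited intensity values, namely processed signals of Agilent Feature Extraction (11.0.1.1 by the file headers, 9.5 by the submitters' processing notes) from 2 single-color arrays of pooled, cyanine 3-labeled RNA, with the background subtracted and the arrays not scaled to each other. Their value table is identical to these signals. From these, log2 values minus the 75th percentile of each array over 59305 non-control spots were computed. Spots with an outlier flag (237) were left out, and a probe counted as detected when 50% or more of its spots were well above background (65.8% of spots on the FOXO1-Tg array and 65.5% on the wild-type array were). Probes were named through unversioned transcripts in the RefSeq table of GRCm38.p6 (28329 of 55681 probes, 21366 genes), and a gene was given by its brightest detected probe. Probes detected on 1 array entered counts by a bound against the lowest well-above-background signal. Both arrays lay on 1 slide and were scanned together. The number of arrays (1 per group) limits the precision. Over 293 probes with 8 or more spots, the median SD of the log2 ratio was 0.053.

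The 10 genes and all lists were chosen with earlier results of these data known. Named were the 10 genes, the 2 highest and 2 lowest genes of each list, list genes past 2-fold, Foxo1, Ppargc1a, Ppargc1b, Pprc1 and Esrra. Alternatives covered scaling, background correction, the value table, filters, probe summary, signal and threshold. Python 3.11.15 (numpy 2.4.6, pandas 2.3.3, scipy 1.17.1, statsmodels 0.14.6, matplotlib 3.10.9) was used, with R 4.3.3 and limma 3.58.1 for the normexp correction. Loess scaling was computed with statsmodels, and quantile normalization with numpy and scipy. The procedure was tested on simulated data.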

Additional observations from a re-analysis of the deposited data

How the results depend on the processing

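Across 12 alternatives, 2 of 120 gene ratios moved by more than the scanner error. With the median over probes, Polg2 had -0.47 and Tfam -0.23. Polg2 and Gabpa (-0.42) were then both lower than Tfam, while Twnk and Tfb2m remained the lowest. The count of genes more than 1.5-fold lower, 1 with the main setting, was 0 after normexp correction with quantile normalization (Twnk -0.54) and 3 (Twnk, Tfb2m and Tfam) at a lower threshold of 0.32 on the log2 scale, past which 24.1% of all genes were lower. The widest gap between probes of a gene, 0.59, was 0.37 after normexp correction. The median of the 10 genes stayed between -0.22 and -0.06, and its difference from the all-gene median between -0.15 and -0.04, the smallest without a filter on dim probes. The median of all genes was -0.07 with the main scaling and 0.06 without scaling, and genes more than 1.5-fold lower made up 54.1% of those past 1.5-fold with the main scaling but 34.0% after loess. None of 72 list medians was above 0. Of 360 counts over the lists, 8 moved by more than 1.5 times, among them Endog, no longer more than 1.5-fold lower under 5 alternatives. Within that tolerance, list genes below 0 numbered 63 without scaling, 67 with median scaling and 79 with the main scaling, and without scaling they were 10 of 15 for replication and repair, 15 of 22 for RNA processing, 12 of 18 for genes linked to NRF1 or GABP, 11 of 18 for nuclear regulators and 6 of 12 for nucleoid partners. With 100 bases in place of 250, GC boxes were in windows of 4 genes, against 46.3% of detected genes. The NRF1 site and NRF1 core were then in none, against 7.36% and 7.13%. The FOXO forms TTGTTTAC and TTATTTAC were also in none, against 0.244% and 0.195%. No paired analysis was possible because there was 1 array per group, and for the same reason no replicate could be left out. Low signal limits the dim probes of Nrf1, Gabpb1 and Polg2, which were 2.73 to 3.68 times their background.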

Other observations

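Some of the 10 genes start within 1000 bases of a neighbor on the opposite strand, and these neighbors were looked up after the values had been seen. Tfb2m starts 253 bases from Cnst, which encodes the connexin-binding protein consortin. Cnst measured 2744 in the FOXO1-Tg pool, against 5040 in the wild-type pool, a log2 ratio of -1.01, beside -0.54 for Tfb2m. Both genes of this pair were thus lower in FOXO1-Tg, the neighbor more so. Gabpa starts 148 bases from Atp5j, which encodes coupling factor 6 of ATP synthase, and both had -0.28. Twnk starts 116 bases from the mitoribosomal protein gene Mrpl43, which had 26521 in the FOXO1-Tg pool and 25735 in the wild-type pool, a ratio of -0.09 beside -0.73 for Twnk. The low ratio of the helicase gene was thus not shared by the gene across its start. Tfb1m starts 69 bases from 1700102H20Rik, which had 0.17 beside -0.05.

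Over all 699 such pairs detected on both arrays, 57.9% had ratios of the same sign, and the median absolute difference between partners was 0.24. Pearson's r across pairs was 0.22 and Spearman's rho 0.17, given as a description of these arrays, since genes on an array are not independent replicates.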
